A study of Homo sapiens with 24 samples.

Results

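The genes that encode the inhibitors of cyclin-dependent kinases (CDKs) were CDKN1A (p21), CDKN1B (p27), CDKN1C (p57), CDKN2A (p16 and ARF), CDKN2B (p15), CDKN2C (p18) and CDKN2D (p19). They were taken by gene symbol, and all 7 were among the 14114 genes of the deposited table. RNA was sequenced in 24 libraries of 3 human cell lines. They were MDA-MB-157 first, MDA-MB-231 second and MDA-MB-468 last in the order used for values of all 3 lines. The labels give them as basal breast cancer lines without oestrogen receptor α or progesterone receptor and without overexpressed HER2. Cells of each line were exposed for 3 h to DMSO at 0.05% by volume, to thalidomide at 1000 nM, to BETi-211 at 1000 nM or to BETd-246 at 100 nM. BETi-211 is an inhibitor and BETd-246 a degrader of the BET bromodomain proteins, readers of acetylated chromatin. The 12 groups of a line under a treatment had 2 libraries each, named as independent biological replicates in the series description. DMSO and thalidomide, which binds cereblon, both served as controls, so every line had 4 control libraries. A line stands for 1 established culture, so differences between lines are differences between these cultures. The inhibitor and the degrader were given at different doses, so a difference between them is not a comparison at a matched dose.

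CDK inhibitors bind the kinases that move a cell through its division cycle. The Cip/Kip proteins p21, p27 and p57 bind complexes of cyclins with CDKs, whereas the INK4 proteins p15, p16, p18 and p19 bind CDK4 and CDK6 and keep them from D-type cyclins. Active CDKs phosphorylate the retinoblastoma protein RB1 and release E2F transcription factors, so these inhibitors hold cells before DNA synthesis. In breast cancer p27 is best known as a protein whose amount is set largely by its degradation, and p16 as a product of a locus that is often deleted.

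Values were FPKM, fragments of a gene scaled by its length and by the library's depth, which makes levels comparable between genes by length but gives each gene as a share of its library. Sums of FPKM ran from 454289 to 534179 per library, and the depth was estimated from the steps of low values at 42500000 to 63750000 fragments. The median FPKM over genes in MDA-MB-468 was 9.688 to 10.06 for controls, 8.723 to 8.726 for BETi-211 and 7.888 to 7.939 for BETd-246, and it was lower with both compounds in the other lines as well. Mitochondrial genes took 7.185 to 8.334% of the FPKM sum in those controls and 9.549 to 9.74% with BETd-246. The part of these shifts in the results was not tested beyond the alternative scalings given with the results. Of 5 breast epithelial markers, all measured, EPCAM stood at 144.7 to 176.1 FPKM in MDA-MB-468 but at only 1.581 to 1.892 in MDA-MB-157 and 3.116 to 3.897 in MDA-MB-231. KRT8 and KRT18 were at 147.5 FPKM or more in every library. KRT19 was at 1296 to 1482 FPKM in MDA-MB-468, 64.99 to 80.27 in MDA-MB-231 and 0.0113 to 0.09457 in MDA-MB-157. CDH1 was at 36.44 to 48.36 FPKM in MDA-MB-468, 0.1307 to 0.1976 in MDA-MB-231 and 0.3871 to 0.5327 in MDA-MB-157. ESR1 and PGR were not among the genes of the table, and ERBB2 was at 7.168 to 19.46 FPKM. In MDA-MB-157 the monocyte marker CD14, 1 of 2 immune markers measured of 5 listed, was at 50.93 to 68.11 FPKM and under 1 FPKM in the other lines. The sum of the 4 fibroblast markers measured of 5 was 134.6 to 172.3 FPKM in MDA-MB-157, LUM alone giving 53.15 to 67.73, and at most 2.285 elsewhere. The part of these markers in the differences between lines was not tested. In bulk libraries such as these, fewer cells of a type and less RNA per cell cannot be told apart.

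BETi-211 and BETd-246 moved the CDK inhibitor genes differently. With BETi-211 the transcript of p21 was 2.44-fold, 5.84-fold and 4.83-fold above the controls in the 3 lines, whereas with BETd-246 it rose by 1.41-fold in MDA-MB-231. With BETd-246 its change in MDA-MB-468 was 0.07 on the log2 scale and did not pass, but passed as a rise of 0.14 to 0.25 under 3 of the 4 alternative scalings. With BETd-246 the transcript of p27 fell in all 3 lines, by 2.61-fold, 1.54-fold and 2.14-fold, against 1.27-fold, 1.16-fold and 1.29-fold with BETi-211. The BETi-211 fall in MDA-MB-231 did not pass under most alternative scalings. CDKN2B rose with BETi-211 and fell with BETd-246 in the 2 lines that express it. Folds are on the scale of FPKM + 1, which understates the changes of low genes, and all tests were limma's moderated test on log2(FPKM + 1) with Benjamini-Hochberg adjustment over the 14114 genes, where passing meant an adjusted p under 0.05.

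**Figure D1:**
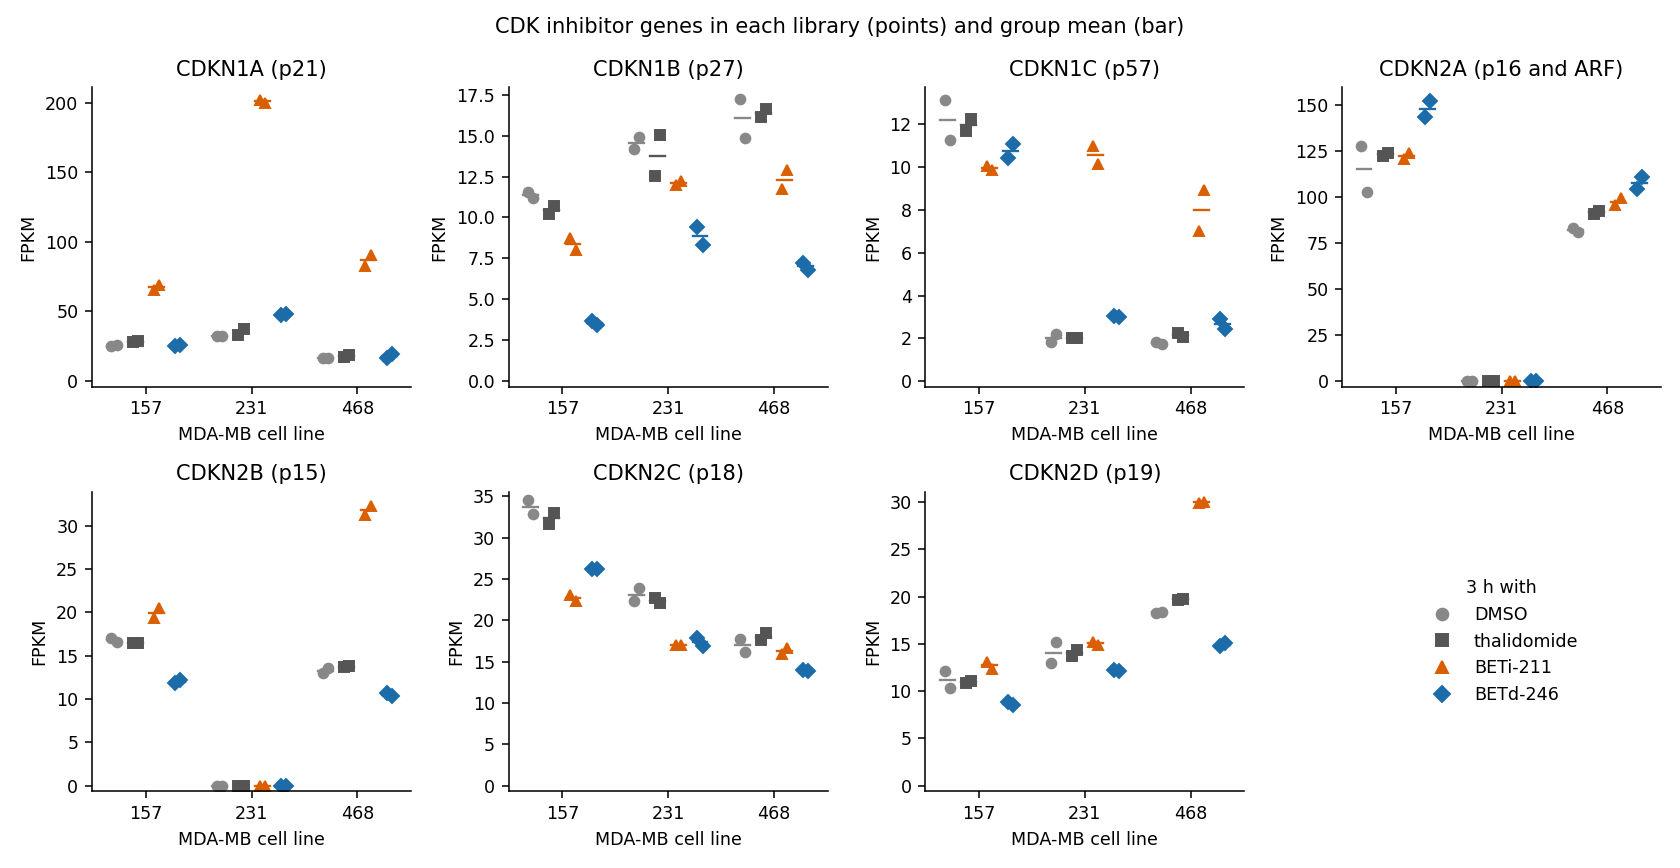
FPKM of the 7 CDK inhibitor genes in each of the 24 libraries, by cell line (x axis) and treatment (colour and shape), with a bar at the mean of the 2 libraries of a group. The BETi-211 libraries stand above all others for CDKN1A in every line, and the BETd-246 libraries stand lowest for CDKN1B.

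The 2 genes on chromosome arm 9p, CDKN2A and CDKN2B, were listed at 0 in all 8 MDA-MB-231 libraries, so each comparison within lines covered 19 pairs of a gene and a line. With BETd-246, 5 of 7 genes passed the threshold in MDA-MB-157 (1 higher, 4 lower), 5 of 5 in MDA-MB-231 (2 higher, 3 lower) and 6 of 7 in MDA-MB-468 (2 higher, 4 lower). Of all genes, 51.5%, 48.1% and 53.9% passed in the same comparisons, 19%, 14.8% and 20.1% as higher and 32.4%, 33.3% and 33.7% as lower. With BETi-211, 6 of 7 genes passed in MDA-MB-157 (3 higher, 3 lower), 4 of 5 in MDA-MB-231 (2 higher, 2 lower) and 6 of 7 in MDA-MB-468 (5 higher, 1 lower), where 45.8%, 50.1% and 53.9% of all genes passed. Over all genes 14.9%, 18.7% and 21.3% were higher with BETi-211 and 30.9%, 31.4% and 32.5% lower. With 45.8 to 53.9% of all genes past the threshold, the CDK inhibitor genes are described by the size and direction of their changes. The median log2 change of the 7 genes with BETd-246 was -0.32 in MDA-MB-157 and -0.31 in MDA-MB-468, against -0.03 over all genes in both lines. With BETi-211 it was 0.04 and 0.63 in these lines, against -0.03 and -0.01 over all genes. In MDA-MB-231 the median of 5 genes was -0.19 with BETd-246 and 0.09 with BETi-211, against -0.05 and -0.03 over all genes. Scaling the libraries by the median of ratios moved the median over all genes in these comparisons by 0.04 to 0.13 on the log2 scale, and it moved the split of calls over all genes. The share of calls that were higher with BETd-246 was 30.7 to 37.4% over the lines, 64.1 to 65% with the median of ratios and 9.88 to 17.9% with column totals. For BETi-211 it was 32.6 to 39.6%, 50.5 to 54.4% and 23.1 to 26.3%. The CDK inhibitor calls with BETd-246 were 5 higher and 11 lower over the lines, 6 and 10 with the median of ratios, and 5 and 13 with column totals. With BETi-211 they were 10 and 6, 11 and 4, and 9 and 7.

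**Figure D2:**
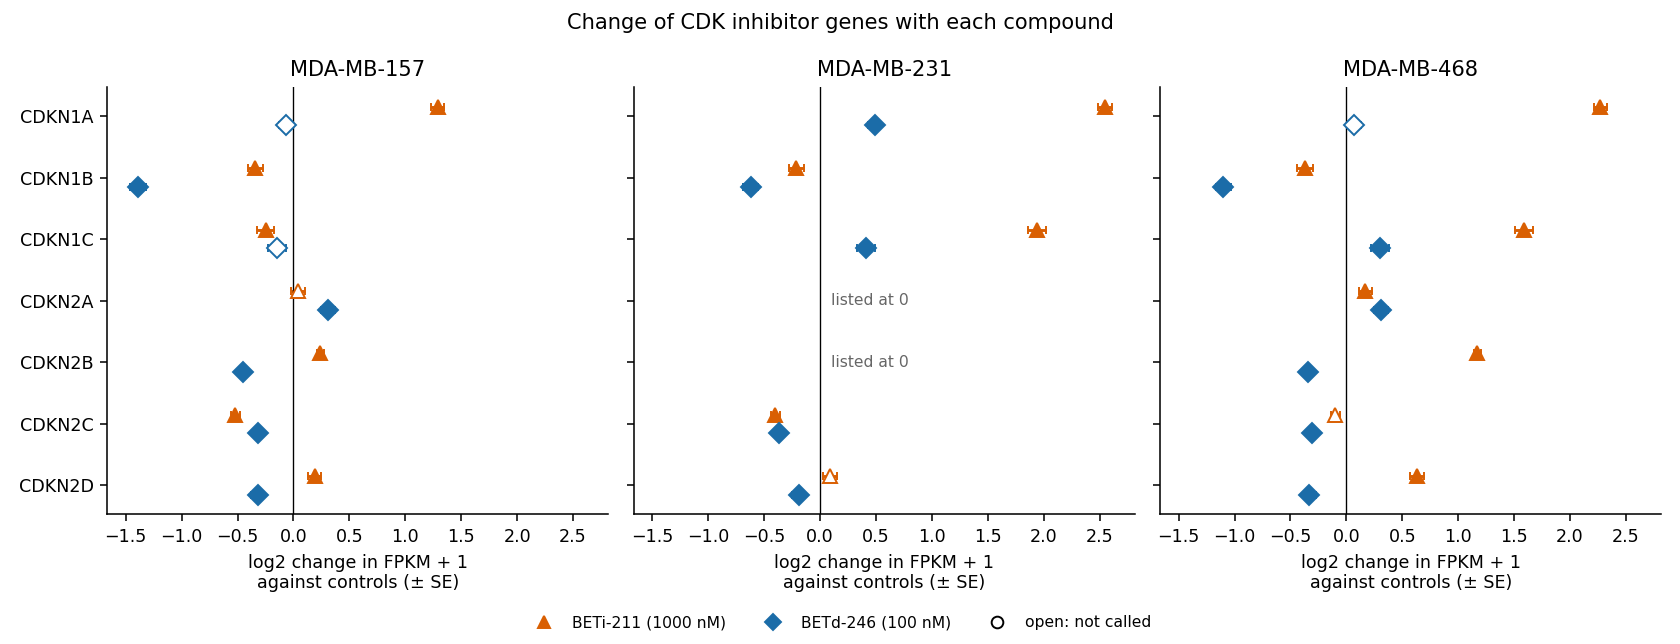
Log2 change of each CDK inhibitor gene with BETi-211 (1000 nM, triangles) and BETd-246 (100 nM, diamonds) against the 4 control libraries of the line, with bars of 1 standard error. Filled symbols passed the threshold of 0.05 on the adjusted p, and the gap between the compounds was widest for CDKN1A in MDA-MB-468, with MDA-MB-231 next.

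CDKN1A lies on chromosome 6 (GRCh38, chr6:36676460-36687339, plus strand) and overlaps the antisense gene DINOL, whose reads cannot be told from its own because the library kit does not mark the strand. In MDA-MB-157 it was at 25.5 and 25.6 FPKM with DMSO, 28.1 and 28.7 with thalidomide, 65.5 and 68.9 with BETi-211, and 25.2 and 26.1 with BETd-246. In MDA-MB-231 the values were 32.5 and 32.1 with DMSO, 32.8 and 37.2 with thalidomide, 201.7 and 199.97 with BETi-211, and 47.3 and 47.8 with BETd-246. MDA-MB-468 gave 16.5 and 16.6 with DMSO, 16.98 and 18.58 with thalidomide, 82.8 and 90.4 with BETi-211, and 16.7 and 19.6 with BETd-246. Every BETi-211 library was thus above every other library of its line, and the BETd-246 libraries overlapped the controls everywhere but in MDA-MB-231. The log2 change with BETi-211 was 1.29 ± 0.06 (SE), 2.55 ± 0.06 and 2.27 ± 0.06 in the 3 lines (limma, adjusted p = 4.98e-11, 2.91e-14 and 4.9e-14). In MDA-MB-231 this was the rise of rank 4 among 14114 genes, and its rank was 15 in MDA-MB-468 and 56 in MDA-MB-157.

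With BETd-246, CDKN1A changed by 0.49 ± 0.06 in MDA-MB-231 (limma, adjusted p = 2.94e-06), a rise of rank 124. In MDA-MB-157 its change was -0.07 with a 95% interval of -0.19 to 0.06, and in MDA-MB-468 it was 0.07 with an interval of -0.05 to 0.20 (adjusted p = 0.369 and 0.31). Those 2 values depended on the scaling. In MDA-MB-468 the change was 0.25 and passed with the median of ratios (adjusted p = 0.000835), 0.21 with quantile normalization (adjusted p = 0.00228), 0.14 with upper-quartile scaling (adjusted p = 0.0372) and 0.19 without BETd-246 replicate 1 (adjusted p = 0.0255). In MDA-MB-157 it was -0.16 with column totals (adjusted p = 0.0461). Against BETi-211, the degrader left CDKN1A lower by 1.35, 2.05 and 2.20 on the log2 scale in the 3 lines, changes of -1.35 ± 0.07, -2.05 ± 0.07 and -2.20 ± 0.07. In the comparison of the compounds 6 of 7 CDK inhibitor genes passed in MDA-MB-157 (2 higher and 4 lower with BETd-246), 4 of 5 in MDA-MB-231 (all lower) and 6 of 7 in MDA-MB-468 (all lower). Of all genes 46.5%, 41.7% and 43.3% passed, with 24.2%, 17.8% and 20.1% higher and 22.3%, 23.9% and 23.2% lower with BETd-246. Over the lines 2 calls of CDK inhibitor genes were higher and 14 lower, and 4 and 13 with the median of ratios, which moved the share of higher calls over all genes from between 42.6 and 52.1% to between 65.6 and 67.5%.

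The sequence just before a start site of CDKN1A is shown together with those of CDKN2B and CDKN2D because CDKN1A had the largest rise, and CDKN2B and CDKN2D were the pair of CDK inhibitor genes whose values moved most alike. The stretches are from RefSeq (GRCh38.p14), 5′ to 3′ on the gene's strand, cut to the bases that no annotated exon of the gene covers. Capitals mark GC boxes (GGGCGG or, on the other strand, CCGCCC), the motif that SP1 family factors bind. The first is 194 bases of the plus strand at chr6:36678464-36678657, the next 192 bases of the minus strand at chr9:22009364-22009555 and the last 170 bases of the minus strand at chr19:10569060-10569229.
CDKN1A: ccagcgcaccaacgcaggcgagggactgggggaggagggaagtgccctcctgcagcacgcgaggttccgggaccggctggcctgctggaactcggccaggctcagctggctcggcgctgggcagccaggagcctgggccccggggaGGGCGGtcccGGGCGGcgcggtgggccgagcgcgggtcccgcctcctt
CDKN2B: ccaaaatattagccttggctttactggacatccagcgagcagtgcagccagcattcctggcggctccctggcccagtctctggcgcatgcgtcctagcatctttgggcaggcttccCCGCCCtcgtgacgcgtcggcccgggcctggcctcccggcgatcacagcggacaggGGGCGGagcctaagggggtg
CDKN2D: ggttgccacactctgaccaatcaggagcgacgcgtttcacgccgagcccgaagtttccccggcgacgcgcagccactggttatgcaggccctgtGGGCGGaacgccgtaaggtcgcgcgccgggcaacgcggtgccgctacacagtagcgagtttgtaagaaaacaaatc
The stretches held 2, 2 and 1 GC boxes, and 76.8%, 66.1% and 62.4% of their bases were G or C. Over all RefSeq windows of 250 bases the median share of G or C was 58.0%. In the full 250 bases before the start site, CDKN1A had 4 GC boxes, CDKN2B 2, CDKN2D 2 and CDKN1B 1. The 3 start sites of CDKN2C had 0, 5 and 1, and those of CDKN2A 0 and 1. A GC box was present in 42.6% of the 35116 RefSeq windows of that length. CDKN1B also held 2 CCAAT boxes (CCAAT or ATTGG), and CDKN2D and 1 window of CDKN2C held 1 each, a motif found in 32.0% of windows. TATAAA, the E2F motif TTTGGCGC and the AP-1 motif TGACTCA, searched on both strands, were in none of the windows of the 6 CDK inhibitor genes with an entry, and in 10.7%, 0.55% and 4.2% of all windows. The E-box CACGTG was in the CDKN2C windows of start sites 50960745 and 50970245. It was in no other window of these genes, and in 6.34% of all windows. These matches describe the letters only.

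CDKN1B encodes p27, which binds cyclin E and cyclin A complexes with CDK2, and lies on chromosome 12 (chr12:12715058-12722371, plus strand). MDA-MB-157 held it at 11.55 and 11.18 FPKM with DMSO, 10.2 and 10.7 with thalidomide, 8.73 and 8.02 with BETi-211, and 3.67 and 3.43 with BETd-246. The values in MDA-MB-231 were 14.2 and 14.9 with DMSO, 12.55 and 15.02 with thalidomide, 11.96 and 12.24 with BETi-211, and 9.40 and 8.30 with BETd-246. In MDA-MB-468 they were 17.3 and 14.9 with DMSO, 16.1 and 16.6 with thalidomide, 11.7 and 12.9 with BETi-211, and 7.23 and 6.81 with BETd-246. The BETd-246 libraries were the lowest of each line, the BETi-211 libraries came next, and no library of either compound reached the controls of its line. The log2 change with BETd-246 was -1.39 ± 0.07, -0.62 ± 0.07 and -1.10 ± 0.07 in the 3 lines (limma, adjusted p = 7.18e-11, 1.56e-06 and 9.96e-10), and its rank from the lowest change was 208, 1498 and 723. BETi-211 changed CDKN1B by -0.34 ± 0.07, -0.21 ± 0.07 and -0.37 ± 0.07 (adjusted p = 0.00069, 0.0212 and 0.000285). Between the compounds the difference was -1.04 ± 0.08, -0.41 ± 0.08 and -0.73 ± 0.08, lower with BETd-246 in each line. The change of CDKN1B with BETi-211 in MDA-MB-231 did not pass with quantile normalization (-0.10, adjusted p = 0.233), upper-quartile scaling (-0.14, adjusted p = 0.0874) or the median of ratios (-0.13, adjusted p = 0.132). It did not pass with thalidomide alone as control (-0.17, adjusted p = 0.101) or in a fit of that line alone (-0.21, adjusted p = 0.0931). Nor did it pass without BETi-211 replicate 1 (-0.19) or 2 (-0.22), DMSO replicate 2 (-0.19) or thalidomide replicate 2 (-0.15).

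CDKN1C encodes p57, an imprinted inhibitor of cyclin E and cyclin A complexes, and lies on chromosome 11 (chr11:2883213-2885773, minus strand). It was the CDK inhibitor gene whose response to BETi-211 differed most between lines. Its values in MDA-MB-157 were 13.2 and 11.3 FPKM with DMSO, 11.7 and 12.2 with thalidomide, 10.0 and 9.88 with BETi-211, and 10.4 and 11.1 with BETd-246. MDA-MB-231 had 1.85 and 2.19 with DMSO, 2.002 and 2.020 with thalidomide, 11.01 and 10.15 with BETi-211, and 3.02 and 2.99 with BETd-246. For MDA-MB-468 the values were 1.83 and 1.72 with DMSO, 2.26 and 2.08 with thalidomide, 7.04 and 8.93 with BETi-211, and 2.88 and 2.45 with BETd-246. Outside MDA-MB-157 the order was controls, BETd-246, BETi-211 with no overlap, and in MDA-MB-157 the libraries of both compounds lay under all 4 controls. The log2 change with BETi-211 was 1.94 ± 0.08 for MDA-MB-231 and 1.59 ± 0.08 for MDA-MB-468 (limma, adjusted p = 9.55e-12 and 6.72e-11), or 5.25 and 4.04 times the control mean in FPKM, and -0.25 ± 0.08 in MDA-MB-157 (adjusted p = 0.0145). With BETd-246 it was 0.41 ± 0.08, 0.30 ± 0.08 and -0.15 ± 0.08 in the same order of lines (adjusted p = 0.000444, 0.00415 and 0.115). BETd-246 left the gene below BETi-211 by -1.53 ± 0.09 for MDA-MB-231 and -1.29 ± 0.09 for MDA-MB-468, while in MDA-MB-157 the difference was 0.10 with a 95% interval of -0.09 to 0.29.

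Smaller changes of CDKN1C did not pass in every alternative. The fall with BETi-211 in MDA-MB-157 did not pass with quantile normalization (-0.15, adjusted p = 0.169), upper-quartile scaling (-0.17, adjusted p = 0.0802), the median of ratios (-0.18, adjusted p = 0.0746), without DMSO replicate 1 (-0.20, adjusted p = 0.0519), without BETi-211 replicate 1 (-0.26, adjusted p = 0.0651) or without BETi-211 replicate 2 (-0.24, adjusted p = 0.0872). The CDKN1C rise with BETd-246 in MDA-MB-468 did not pass with thalidomide alone as control (0.21, adjusted p = 0.0732) or without BETd-246 replicate 1 (0.22, adjusted p = 0.0925). In MDA-MB-157 the change of CDKN1C with BETd-246 passed without DMSO replicate 2 (-0.21, adjusted p = 0.0472) and with column totals (-0.24, adjusted p = 0.0179).

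CDKN2A encodes both p16, an inhibitor of CDK4 and CDK6, and ARF, an inhibitor of MDM2, from separate first exons, and these values do not part them. It lies on chromosome 9 (chr9:21967753-21995301, minus strand) and overlaps the antisense gene CDKN2B-AS1 and the gene AL359922.1, also on the other strand. Their reads cannot be told by strand from those of CDKN2A. In MDA-MB-157 it was at 128 and 103 FPKM with DMSO, 123 and 124 with thalidomide, 121 and 124 with BETi-211, and 144 and 152 with BETd-246. In MDA-MB-468 the values were 83.0 and 81.0 with DMSO, 90.8 and 92.7 with thalidomide, 95.9 and 99.3 with BETi-211, and 104 and 111 with BETd-246. BETd-246 libraries were the highest of both lines, by 0.31 ± 0.06 over the controls in MDA-MB-157 and 0.31 ± 0.06 in MDA-MB-468 (limma, adjusted p = 0.000281 and 0.000274). In these 2 lines CDKN2A rose with the degrader, and CDKN1B, CDKN2B, CDKN2C and CDKN2D fell. With BETi-211 the change was 0.04 (95% interval -0.08 to 0.16) in MDA-MB-157 and 0.17 ± 0.06 in MDA-MB-468 (adjusted p = 0.0213). Between the compounds CDKN2A differed by 0.27 ± 0.07 in MDA-MB-157, higher with BETd-246, and by 0.14 (95% interval 0.000 to 0.28, adjusted p = 0.1) in MDA-MB-468, where it passed with the median of ratios (0.25, adjusted p = 0.00314) and in a fit of that line alone (0.14, adjusted p = 0.0242). The rise of CDKN2A with BETi-211 in MDA-MB-468 did not pass with quantile normalization (0.12, adjusted p = 0.073), column totals (0.09, adjusted p = 0.221) or thalidomide alone as control (0.09, adjusted p = 0.303). Nor did it pass without DMSO replicate 2 (0.16), BETi-211 replicate 1 (0.19) or BETi-211 replicate 2 (0.14). In MDA-MB-157 that change was 0.12 and passed without DMSO replicate 1 (adjusted p = 0.00938).

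CDKN2B encodes p15, an inhibitor of CDK4 and CDK6 that is known as a target of TGF-β signalling, and lies beside CDKN2A (chr9:22002903-22009363, minus strand). CDKN2B-AS1 and AL359922.1 overlap CDKN2B as well, with the same limit on its reads. In MDA-MB-157 its values were 17.04 and 16.62 FPKM with DMSO, 16.5 and 16.5 with thalidomide, 19.4 and 20.5 with BETi-211, and 11.8 and 12.1 with BETd-246. In MDA-MB-468 it was at 12.98 and 13.58 with DMSO, 13.7 and 13.8 with thalidomide, 31.2 and 32.3 with BETi-211, and 10.7 and 10.3 with BETd-246. The 3 kinds of library did not overlap in either line, with BETi-211 above and BETd-246 below the controls. The log2 change with BETi-211 was 0.24 ± 0.03 in MDA-MB-157 and 1.17 ± 0.03 in MDA-MB-468 (limma, adjusted p = 1.72e-05 and 1.65e-13). With BETd-246 CDKN2B changed by -0.45 ± 0.03 and -0.34 ± 0.03 (adjusted p = 1.17e-08 and 3.03e-07), and the compounds differed by -0.69 ± 0.04 and -1.51 ± 0.04. These 6 calls of CDKN2B held under every alternative that was run. The standard errors of CDKN2A and CDKN2B draw on the 8 MDA-MB-231 libraries at 0, which have no spread. In a fit of each line alone their calls with the compounds still passed, with an adjusted p of 0.0137 for CDKN2A with BETd-246 in MDA-MB-157 and 0.0434 for its difference between the compounds there.

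The level of CDKN2A and CDKN2B separated MDA-MB-231 from the other lines. Several genes on either side of them were also low there. In the order of the chromosome, MLLT3 stood at 6.055 to 7.792 FPKM over the 8 libraries of MDA-MB-231, FOCAD at 1.393 to 2.012, KLHL9 at 0.0 to 0.006632, and MTAP, the methylthioadenosine phosphorylase, at 0.1317 to 0.4028. CDKN2B-AS1 was at 0.2529 to 0.6787, and the RNA-binding protein gene ELAVL2 beyond it was listed at 0 in all 8 libraries. In MDA-MB-157 MTAP was at 19.7 to 23.55 FPKM and in MDA-MB-468 at 18.97 to 23.25, and KLHL9 was at 5.048 to 20.35 and 1.494 to 7.346. MTAP, KLHL9, CDKN2A, CDKN2B and ELAVL2 of MDA-MB-231 were thus all under 1 FPKM, and MLLT3 was higher there than in either other line. DNA copy number was not measured in these libraries. In all, 62 genes were listed at 0 in all 8 MDA-MB-231 libraries, 19 in those of MDA-MB-157 and 82 in those of MDA-MB-468.

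**Figure D3:**
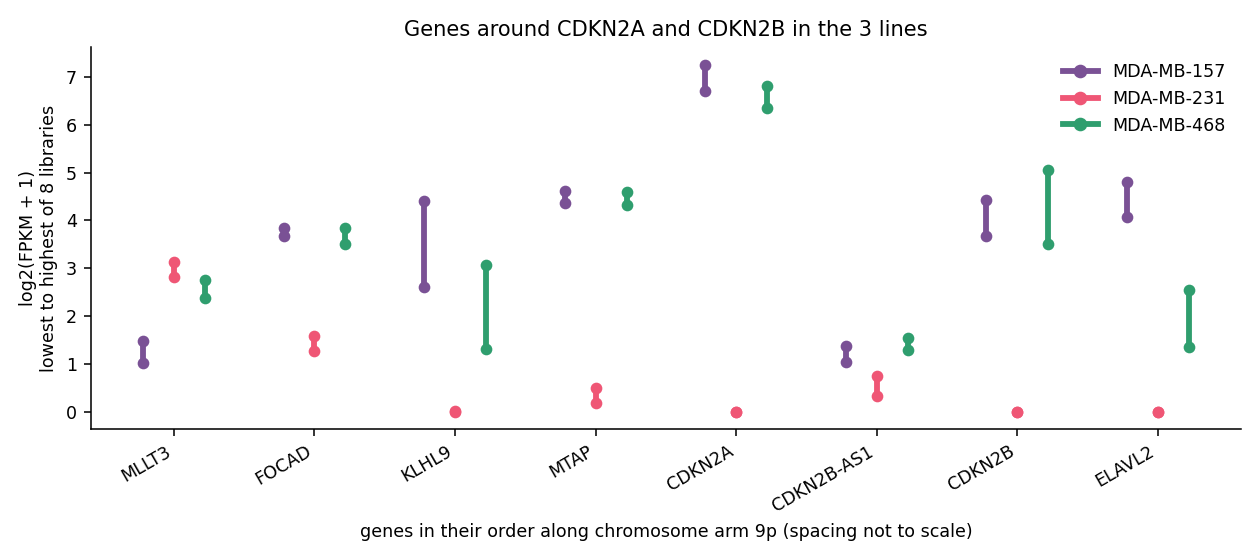
Lowest and highest log2(FPKM + 1) over the 8 libraries of each line for the genes around CDKN2A and CDKN2B, in their order along the chromosome and not to scale. From KLHL9 to ELAVL2 the MDA-MB-231 values lie under 1 FPKM, while MLLT3 is higher in MDA-MB-231 than in the other lines.

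CDKN2C encodes p18 and lies on chromosome 1 (chr1:50960745-50974633, plus strand). Levels in MDA-MB-157 were 34.5 and 32.8 FPKM with DMSO, 31.68 and 33.04 with thalidomide, 23.04 and 22.38 with BETi-211, and 26.3 and 26.2 with BETd-246. The MDA-MB-231 values were 22.3 and 23.9 with DMSO, 22.7 and 22.1 with thalidomide, 17.05 and 17.03 with BETi-211, and 17.8 and 16.9 with BETd-246. MDA-MB-468 had 17.7 and 16.2 with DMSO, 17.6 and 18.4 with thalidomide, 15.9 and 16.7 with BETi-211, and 14.03 and 13.88 with BETd-246. The libraries of both compounds lay under all controls in MDA-MB-231 and MDA-MB-157, and in MDA-MB-468 the BETi-211 libraries overlapped them. CDKN2C fell with both compounds by like amounts in MDA-MB-231, by -0.40 ± 0.04 with BETi-211 and -0.37 ± 0.04 with BETd-246, and the compounds differed by 0.03 with a 95% interval of -0.07 to 0.13, which passed only with the median of ratios (0.14, adjusted p = 0.0249). In MDA-MB-157 the change was -0.52 ± 0.04 with BETi-211 and -0.32 ± 0.04 with BETd-246, and in MDA-MB-468 it was -0.10 ± 0.04 (limma, adjusted p = 0.0578) and -0.31 ± 0.04. So the compound with the lower value differed, BETi-211 in MDA-MB-157 (difference 0.20 ± 0.05, adjusted p = 0.00283) and BETd-246 in MDA-MB-468 (-0.21 ± 0.05, adjusted p = 0.00181). The latter did not pass with the median of ratios (-0.11, adjusted p = 0.0648). The change of CDKN2C with BETi-211 in MDA-MB-468 passed with column totals (-0.18, adjusted p = 0.00188), thalidomide alone as control (-0.14, adjusted p = 0.0246), without DMSO replicate 2 (-0.13, adjusted p = 0.017) and without thalidomide replicate 1 (-0.11, adjusted p = 0.0475).

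CDKN2D encodes p19 and lies on chromosome 19 (chr19:10566462-10569059, minus strand). In MDA-MB-157 it was at 12.1 and 10.3 FPKM with DMSO, 10.8 and 11.1 with thalidomide, 13.1 and 12.4 with BETi-211, and 8.85 and 8.49 with BETd-246. MDA-MB-231 gave 12.96 and 15.21 with DMSO, 13.7 and 14.4 with thalidomide, 15.2 and 14.9 with BETi-211, and 12.2 and 12.2 with BETd-246. In MDA-MB-468 the values were 18.3 and 18.4 with DMSO, 19.7 and 19.8 with thalidomide, 29.96 and 30.02 with BETi-211, and 14.8 and 15.1 with BETd-246. BETd-246 libraries were below the controls in each line, and BETi-211 libraries overlapped them in MDA-MB-231 and were above them in the other lines. The log2 change with BETd-246 was -0.32 ± 0.06, -0.19 ± 0.06 and -0.33 ± 0.06 in the 3 lines (limma, adjusted p = 0.00019, 0.0117 and 0.000131). BETi-211 changed CDKN2D by 0.19 ± 0.06, 0.09 ± 0.06 and 0.63 ± 0.06 (adjusted p = 0.0126, 0.181 and 8.24e-08). The compounds differed by -0.51 ± 0.07, -0.28 ± 0.07 and -0.96 ± 0.07, and CDKN2D was lower with BETd-246 in each line. The fall of CDKN2D with BETd-246 in MDA-MB-231 did not pass with the median of ratios (-0.002, adjusted p = 0.989), quantile normalization (-0.01, adjusted p = 0.891) or upper-quartile scaling (-0.11, adjusted p = 0.121). Nor did it pass in a fit of that line alone (-0.19, adjusted p = 0.0709), without BETd-246 replicate 1 (-0.19) or without BETd-246 replicate 2 (-0.19). Without BETi-211 replicate 1 the rise with BETi-211 in MDA-MB-157 did not pass (0.15). The change with BETi-211 in MDA-MB-231 passed with quantile normalization (0.20, adjusted p = 0.00818), upper-quartile scaling (0.17, adjusted p = 0.0204) and the median of ratios (0.17, adjusted p = 0.0183). It also passed without DMSO replicate 2 (0.15).

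The controls of the 3 lines held different sets of CDK inhibitor transcripts. FPKM is per length, so levels of different genes can be ordered within limits. The gene lengths used were not given, and reads of overlapping genes may be part of the values of CDKN1A, CDKN2A and CDKN2B. In MDA-MB-157 the control means were 119.3 ± 11.1 FPKM (SD, n = 4) for CDKN2A, 33.02 for CDKN2C, 26.95 for CDKN1A, 16.67 for CDKN2B, 12.09 for CDKN1C, 11.1 for CDKN2D and 10.9 for CDKN1B, of which the last 3 overlapped. In MDA-MB-231 CDKN1A led with 33.62 ± 2.38, followed by CDKN2C with 22.74, CDKN1B with 14.17, CDKN2D with 14.07 and CDKN1C with 2.015, and CDKN1B and CDKN2D overlapped. In MDA-MB-468 CDKN2A was at 86.85, CDKN2D at 19.02, CDKN2C at 17.5, CDKN1A at 17.15, CDKN1B at 16.22, CDKN2B at 13.51 and CDKN1C at 1.975, where CDKN2D overlapped CDKN2C and CDKN1A, both of which overlapped CDKN1B.

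Between lines, 16 of 17 control comparisons of a CDK inhibitor gene passed, where 87.4%, 88% and 86.2% of all genes passed between MDA-MB-157 and MDA-MB-231, between MDA-MB-468 and MDA-MB-157, and between MDA-MB-468 and MDA-MB-231. The largest of them was that of CDKN1C, higher in MDA-MB-157 by 2.12 ± 0.06 than in MDA-MB-231 and by 2.14 ± 0.06 than in MDA-MB-468 (limma, adjusted p = 7.85e-15 and 5.78e-15), while MDA-MB-468 and MDA-MB-231 differed in it by 0.02 with a 95% interval of -0.12 to 0.16, or by 0.24 with quantile normalization (adjusted p = 0.00606). CDKN1A was highest in MDA-MB-231, above MDA-MB-468 by 0.93 ± 0.05, and CDKN2C was highest in MDA-MB-157, above MDA-MB-468 by 0.88 ± 0.03. CDKN2D was highest in MDA-MB-468, above MDA-MB-157 by 0.73, a difference of -0.73 ± 0.05. The difference of -0.18 ± 0.06 in CDKN1B of MDA-MB-231 from MDA-MB-468 did not pass with quantile normalization (-0.09, adjusted p = 0.128), DMSO alone as control (-0.13, adjusted p = 0.147) or the median of ratios (-0.07, adjusted p = 0.243).

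No CDK inhibitor gene passed between thalidomide and DMSO in any line (0 of 19 pairs by limma), and of all genes 0.184% passed in MDA-MB-157 and 0% in the other lines. At an unadjusted p under 0.05 there were 2093, 766 and 1980 genes, among them CDKN1A in MDA-MB-157 and CDKN2A in MDA-MB-468. CDKN1A was the higher with thalidomide in each line, by 0.15, 0.11 and 0.10. Without DMSO replicate 1 of MDA-MB-157, CDKN2A passed there with 0.26 (adjusted p = 0.00637).

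The response of some CDK inhibitor genes differed between lines. For BETi-211, 11 of 17 line differences passed, where 16.5%, 21.6% and 21.9% of all genes passed in the same order of line pairs. The response of CDKN1A was smaller in MDA-MB-157 than in MDA-MB-231 by 1.26, a difference of -1.26 ± 0.08, and than in MDA-MB-468 by -0.98 ± 0.08 (limma, adjusted p = 2.16e-08 and 2.83e-07). That of CDKN1C differed by -2.20 ± 0.11 and -1.84 ± 0.11 between the same lines, where it fell in MDA-MB-157 and rose in the others. CDKN2B responded less in MDA-MB-157 than in MDA-MB-468, by -0.93 ± 0.05, and CDKN2D responded less in the other lines than in MDA-MB-468, by -0.44 ± 0.08 and -0.54 ± 0.08. CDKN2C fell more in both other lines than in MDA-MB-468, by -0.42 ± 0.06 and -0.30 ± 0.06. For MDA-MB-231 less MDA-MB-468 the differences of 0.27 ± 0.08 for CDKN1A and 0.35 ± 0.11 for CDKN1C (adjusted p = 0.0249 and 0.0333) did not pass without BETi-211 replicate 1 of MDA-MB-468 (0.21 and 0.20, adjusted p = 0.152 and 0.253) or without BETi-211 replicate 1 of MDA-MB-231 (0.27 and 0.30, adjusted p = 0.082 and 0.151). That of CDKN1A also failed without BETi-211 replicate 2 of MDA-MB-231 (0.28) or thalidomide replicate 2 of MDA-MB-468 (0.24). It failed too with a pseudocount of 0.1 FPKM (0.25, adjusted p = 0.053) and in the pair of lines alone (0.27, adjusted p = 0.0661). The same held with DMSO alone (0.28, adjusted p = 0.0511) or thalidomide alone (0.27, adjusted p = 0.0686) as control. That of CDKN1C failed without DMSO replicate 1 of MDA-MB-231 (0.31), DMSO replicate 1 of MDA-MB-468 (0.34) or thalidomide replicate 1 of MDA-MB-468 (0.33). It failed with quantile normalization (0.23, adjusted p = 0.209), DMSO alone as control (0.26, adjusted p = 0.197) and the replicate block (0.35, adjusted p = 0.0623). It also failed with a pseudocount of 0.1 FPKM (0.38, adjusted p = 0.0625) and in the pair of lines alone (0.35, adjusted p = 0.0624). For CDKN2A the response in MDA-MB-157 was below that in MDA-MB-468 by -0.13 (adjusted p = 0.32), and by -0.20 without DMSO replicate 2 of MDA-MB-157 (adjusted p = 0.00494).

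For BETd-246, 6 of 17 line differences passed, where 11.2%, 13.1% and 13.3% of all genes passed. CDKN1B fell more in MDA-MB-157 than in MDA-MB-231, by -0.76 ± 0.10, and less in MDA-MB-231 than in MDA-MB-468, by 0.48 ± 0.10 (limma, adjusted p = 6.57e-05 and 0.0034). CDKN1A was raised more in MDA-MB-231 than in the other lines. The difference was -0.56 ± 0.08 for MDA-MB-157 less MDA-MB-231 and 0.42 ± 0.08 for MDA-MB-231 less MDA-MB-468. CDKN1C responded less in MDA-MB-157 than in each other line, by -0.57 ± 0.11 and -0.46 ± 0.11. The latter did not pass with thalidomide alone as control (-0.35, adjusted p = 0.112), or without BETd-246 replicate 1 of MDA-MB-157 (-0.42) or of MDA-MB-468 (-0.37). For CDKN1B the difference of -0.29 for MDA-MB-157 less MDA-MB-468 (adjusted p = 0.0761) passed with a pseudocount of 0.1 FPKM (-0.40, adjusted p = 0.026), quantile normalization (-0.42, adjusted p = 0.00555), column totals (-0.28, adjusted p = 0.0432), the median of ratios (-0.31, adjusted p = 0.0455), the pair of lines alone (-0.29, adjusted p = 0.0437) and without DMSO replicate 1 of MDA-MB-468 (-0.34, adjusted p = 0.0325). For CDKN2C and CDKN2D no line difference with BETd-246 passed, with values of -0.06 to 0.05 and -0.13 to 0.14.

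Genes most like each CDK inhibitor were found by Pearson's r over the 24 libraries of log2(FPKM + 1), less the mean of the line, among 9387 genes with a mean of at least 5 FPKM. These libraries share their treatments, so r is a description. SLFN5 (r = 0.992), BAIAP2 (r = 0.987) and TCAF1 (r = 0.983) were most like CDKN1A. SLFN5 went from 2.098 FPKM in the MDA-MB-231 controls to 15.05 with BETi-211 and 2.977 with BETd-246. For CDKN1B they were TRMT10C (r = 0.988), CBLL1 (r = 0.977) and ZNF195 (r = 0.973), and TRMT10C, a subunit of the mitochondrial RNase P, went from 25.2 FPKM in the MDA-MB-157 controls to 19.51 with BETi-211 and 6.44 with BETd-246. The genes most like CDKN1C were TM7SF2 (r = 0.950), MXD4 (r = 0.947) and H1FX (r = 0.936), with TM7SF2, an enzyme of sterol synthesis, at 2.554, 10.56 and 2.845 FPKM in the controls, BETi-211 and BETd-246 libraries of MDA-MB-231.

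Among the INK4 genes, CDKN2B was most like HSPA2 (r = 0.945), CDKN2D (r = 0.933) and EVI5 (r = 0.917), so that a CDK inhibitor gene on another chromosome was among its 3 nearest. CDKN2D itself was nearest to POLH (r = 0.953), STK17A (r = 0.952) and PFKFB3 (r = 0.949). POLH, a translesion DNA polymerase, stood at 11.47, 21.5 and 8.371 FPKM in the controls, BETi-211 and BETd-246 libraries of MDA-MB-468. CDKN2A was most like UNC93B1 (r = 0.934), SPNS1 (r = 0.934) and MAP2K2 (r = 0.933), and CDKN2C like C1orf109 (r = 0.952), RIT1 (r = 0.941) and MAFG (r = 0.938). Among the CDK inhibitor genes themselves, r was 0.88 between CDKN1A and CDKN1C, 0.68 between CDKN1A and CDKN2D, -0.02 between CDKN1A and CDKN1B and -0.79 between CDKN1B and CDKN2A. The values of CDKN2A and CDKN2B in MDA-MB-231 add no spread to these r.

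**Figure D4:**
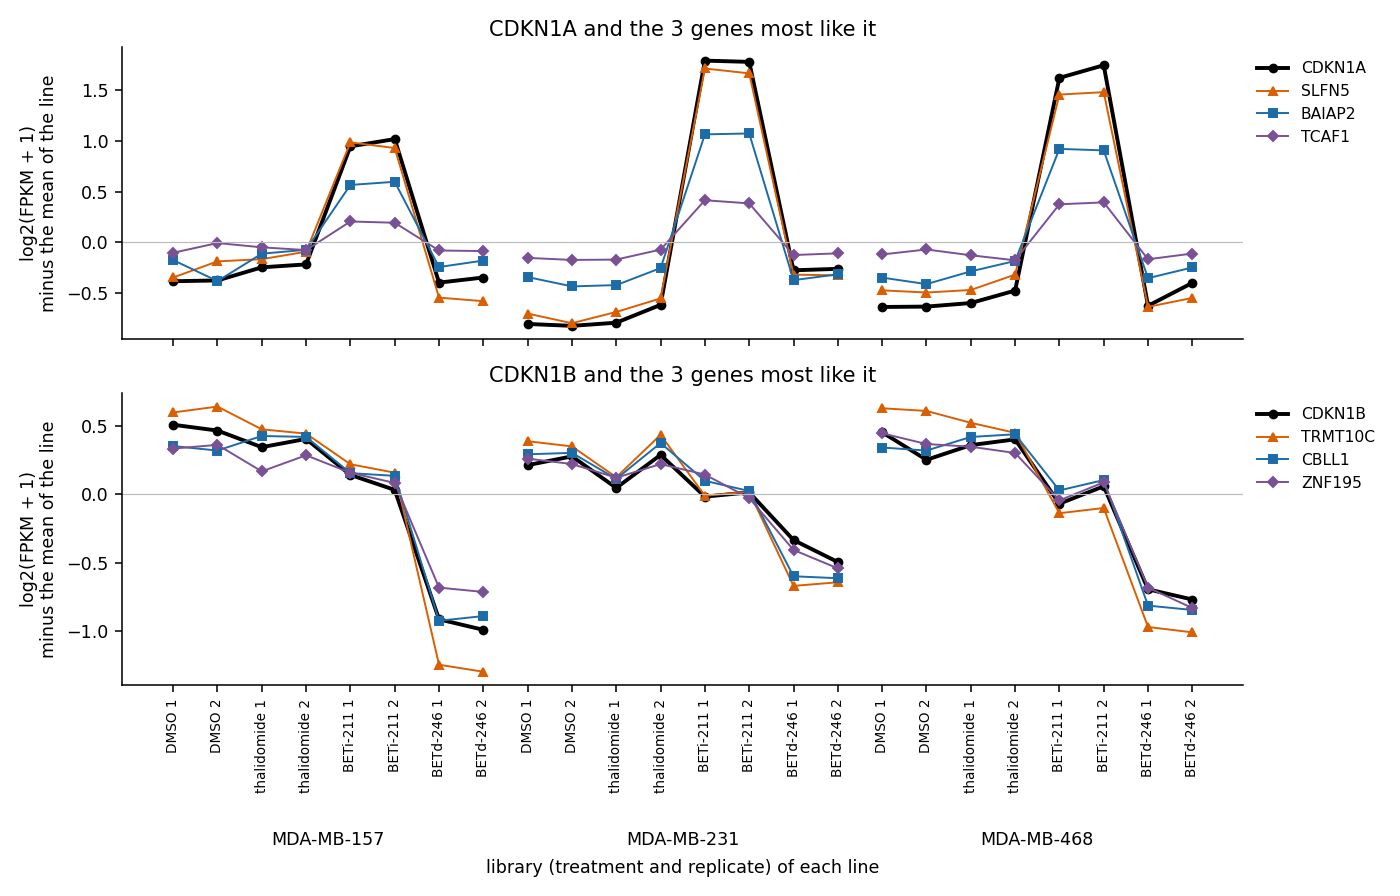
Log2(FPKM + 1) less the mean of the line in each of the 24 libraries (x axis) for CDKN1A (upper panel) and CDKN1B (lower panel) with the 3 genes most like each. CDKN1A and SLFN5 peak in the 6 BETi-211 libraries, and CDKN1B and TRMT10C are lowest in the 6 BETd-246 libraries.

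The partners that CDK inhibitors bind were described from a list of 11 measured CDKs, D-type, E-type, A-type and B-type cyclins and PCNA. With BETd-246, 2 rose and 5 fell in MDA-MB-157, 1 rose and 5 fell in MDA-MB-231, and 2 rose and 6 fell in MDA-MB-468. With BETi-211, 4 rose and 4 fell in every line. Over all genes 14.8 to 20.1% were higher and 32.4 to 33.7% lower with BETd-246, and 14.9 to 21.3% and 30.9 to 32.5% with BETi-211. The 6 to 8 of 11 that passed with BETd-246 stand beside 48.1 to 53.9% of all genes, and the 8 of 11 with BETi-211 beside 45.8 to 53.9%. Their median log2 change with BETd-246 was -0.06, -0.11 and -0.16, against -0.03, -0.05 and -0.03 over all genes. CCNE1 and CCNE2, the cyclin E genes whose kinase complexes p21 and p27 inhibit, moved in opposite directions with the compounds. CCNE1 went from 97.56 FPKM in the MDA-MB-157 controls to 113.9 with BETi-211 and 66.86 with BETd-246, from 10.76 to 16.11 and 5.353 in MDA-MB-231, and from 21.24 to 27.09 and 10.41 in MDA-MB-468. Its log2 change with BETi-211 was 0.22, 0.54 and 0.34, and with BETd-246 -0.54, -0.89 and -0.96 (each ± 0.05, limma). CCNE2 rose by 0.51, 0.75 and 0.77 with BETi-211 and fell with BETd-246, from 31.73 to 15.33 FPKM in MDA-MB-468. CCNA2 fell with both, by -0.46, -0.44 and -0.36 with BETi-211 and -0.48, -0.29 and -0.32 with BETd-246.

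Downstream of the CDKs, 13 genes of RB1, its relatives RBL1 and RBL2, the E2F factors and their DP partners were measured. With BETd-246, 2 rose and 7 fell in MDA-MB-157, 2 rose and 7 fell in MDA-MB-231, and 2 rose and 8 fell in MDA-MB-468. With BETi-211, 0 rose and 9 fell in both MDA-MB-157 and MDA-MB-231, and 2 rose and 8 fell in MDA-MB-468. Of all genes, 14.8 to 20.1% were higher and 32.4 to 33.7% lower with BETd-246, and 14.9 to 21.3% and 30.9 to 32.5% with BETi-211. E2F2 changed by -1.05, -1.12 and -1.64 with BETd-246 and by -1.42, -1.18 and -1.72 with BETi-211 (each ± 0.04), so that the activator E2F2 and the repressors E2F6 and E2F8 fell with both compounds in every line. E2F6 changed by -1.08, -1.60 and -1.80 with BETd-246 and -0.49, -0.54 and -0.87 with BETi-211, and E2F8 by -0.96, -1.60 and -1.45 and by -1.04, -1.07 and -1.32. RB1, the main substrate that CDK4 and CDK6 phosphorylate, stood at 13.25 FPKM in the MDA-MB-157 controls and 44.26 in those of MDA-MB-231 but at 0.2491 in those of MDA-MB-468.

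The enzymes that degrade CDK inhibitor proteins were described by 12 genes, and their direction depended on the scaling. Over the 3 lines, 11 calls were higher and 7 lower with BETd-246, against 26 and 4 with the median of ratios, 7 and 10 with quantile normalization and 1 and 11 with column totals. Of all genes 48.1 to 53.9% passed, and the higher share of their calls was 30.7 to 37.4%, against 64.1 to 65%, 62 to 62.4% and 9.88 to 17.9% with these scalings. The same comparison gave 5 higher and 16 lower for the CDK and cyclin list, against 14 and 11 with the median of ratios and 0 and 23 with column totals, and for the RB and E2F list 6 and 22, against 15 and 20 and 0 and 24. DTL, which targets p21 for degradation, changed by -0.48, -0.32 and -0.66 with BETd-246 and -0.60, -0.28 and -0.70 with BETi-211 in the 3 lines. SKP2, the F-box protein that marks p27 for degradation, changed by -0.22 ± 0.04 with BETd-246 in MDA-MB-157 (limma, adjusted p = 0.000252). In the other lines its changes were 0.03 and -0.03 (adjusted p = 0.599 and 0.504). The amount of p27 protein, on which SKP2 acts, was not measured in these libraries. CUL1, the scaffold of the ligase that SKP2 serves, changed by -0.14, -0.17 and -0.35 with BETd-246 and -0.32, -0.26 and -0.35 with BETi-211.

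**Figure D5:**
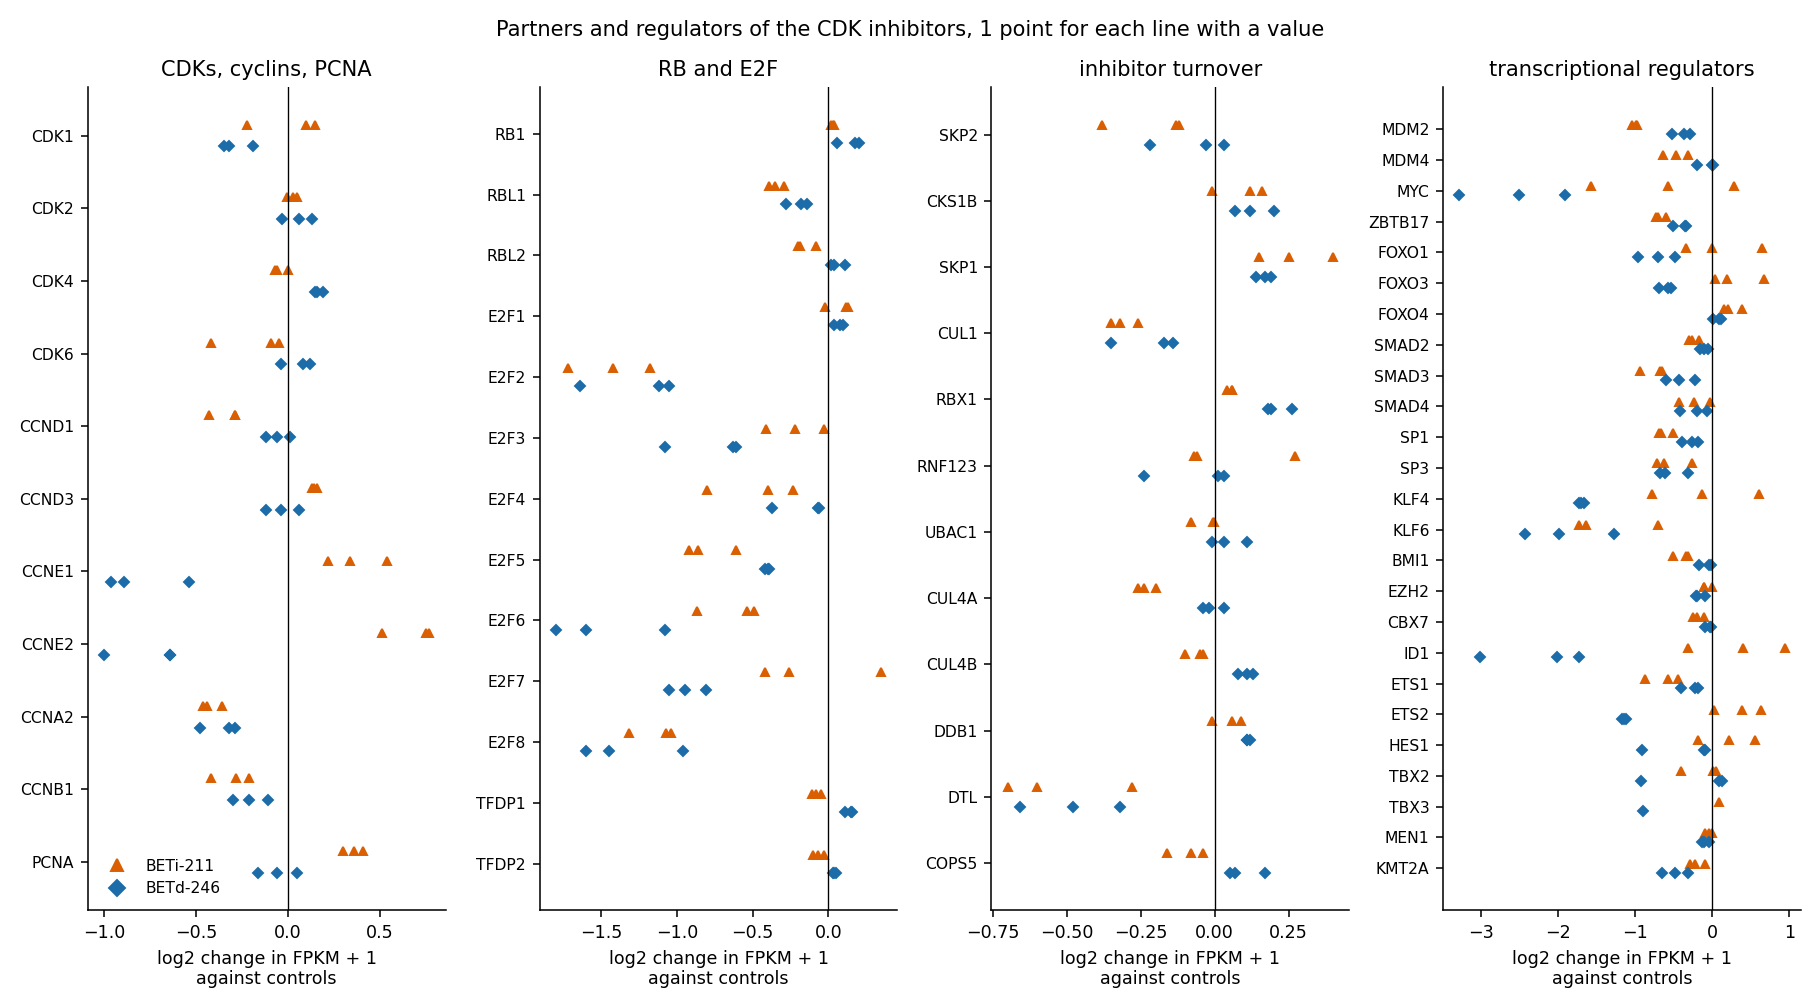
Log2 change against the controls of partners, RB and E2F genes, turnover enzymes and 25 of the transcriptional regulators with BETi-211 (triangles) and BETd-246 (diamonds), 1 point for each line with a value. CCNE1 and CCNE2 lie right of 0 with BETi-211 and left of 0 with BETd-246, and all points of MYC, ID1 and KLF6 with BETd-246 lie left of 0.

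Of 26 measured regulators of CDK inhibitor transcription (25 with a value outside MDA-MB-157), 0, 0 and 1 rose and 19, 16 and 18 fell with BETd-246 in the 3 lines. With BETi-211, 7, 4 and 4 rose and 17, 13 and 14 fell. Of all genes 14.8 to 20.1% were higher and 32.4 to 33.7% lower with BETd-246, and 14.9 to 21.3% and 30.9 to 32.5% with BETi-211. Over the lines, 1 call was higher and 53 were lower with BETd-246, and 9 and 38 with the median of ratios. MYC, which represses CDKN1A and CDKN2B transcription, went from 26.1 FPKM in the MDA-MB-157 controls to 31.84 with BETi-211 and 6.199 with BETd-246. It went from 76.92 to 50.85 and 12.62 in MDA-MB-231, and for MDA-MB-468 from 60.96 to 19.7 and 5.365. Its log2 change with BETd-246 was -1.91, -2.51 and -3.28, larger than with BETi-211 (0.28, -0.58 and -1.58, each ± 0.07). With BETi-211 CDKN1A was higher in each line, while MYC was higher in MDA-MB-157 and lower in the other lines. With BETd-246 MYC was lower in each line, while CDKN1A was higher in MDA-MB-231 and overlapped its controls in the other lines. A part of MYC in the changes of CDKN1A was not tested.

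ID1, an inhibitor of bHLH factors known to repress CDKN2A, changed by -2.01, -1.73 and -3.01 with BETd-246 and by 0.40, 0.94 and -0.32 with BETi-211 (each ± 0.06). ETS2, an activator of CDKN2A, changed by -1.17, -1.12 and -1.15 with BETd-246 and by 0.38, 0.02 and 0.63 with BETi-211 (each ± 0.03, adjusted p = 0.618 for the value of 0.02). Beside CDKN2A and CDKN2B, KLHL9 changed by -1.47 and -1.41 with BETd-246 and -1.74 and -1.66 with BETi-211 in MDA-MB-157 and then in MDA-MB-468, so KLHL9 fell with BETi-211 where CDKN2B rose. CDKN2B-AS1, the antisense gene of the locus, passed in no comparison with either compound.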

How the data were processed

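The authors deposited 1 table of FPKM for 14114 genes in 24 libraries. The unit was read from the values and the deposited table, with the FPKM program, annotation and filter not given in the sources used here. Libraries were made from total RNA depleted of ribosomal RNA with random primers and a TruSeq v2 kit, per the labels' protocols. The submitters' processing notes name bcl2fastq 2.17.1.14, Bowtie 0.12.8 and the build GRCh38.p5. No counts were used, so depth was estimated from the steps of low FPKM values of 236 genes, and no counting interval is given.

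Values were taken as log2(FPKM + 1), with a pseudocount of 1 FPKM and no filter. They were fitted over all 24 libraries and 12 groups with limma 3.58.1 in R 4.3.3, with a trend in the variance and no block. In all, 21 contrasts were tested, each adjusted by Benjamini-Hochberg over 14114 genes, with a threshold of 0.05. The pooled spread had 12 residual and 3.32 prior degrees of freedom. On simulated data for BETi-211 in MDA-MB-231 over 14114 genes, 99% of log2 changes of 1 and 93% of those of 0.5 were called, and 6.34% of calls were unchanged genes. Few genes were changed there, none of them low in the controls, and no shift of whole libraries was simulated. In the real comparison 50.1% of all genes passed, so these shares are not error rates of the calls reported here. All 7 CDK inhibitor genes are named. The 3 genes most like each are named by r, and of each pathway list up to 3 genes with the smallest adjusted p in any line with BETd-246, with RB1, SKP2, MYC, MTAP and CDKN2B-AS1 always named. The values of 1 regulator, counted in its list, are not reported here. The members and the lists were chosen with earlier results of these data known. Gene positions are from GENCODE on GRCh38, where 13951 gene IDs matched, and promoter sequences from RefSeq GRCh38.p14. Alternatives were a pseudocount of 0.1 FPKM, a filter at a group mean of 5 FPKM, quantile, upper-quartile, column-total and median-of-ratios scaling, no variance trend, a replicate block, DMSO or thalidomide alone as control, each line or pair of lines alone, and each of the 24 libraries left out.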

Additional observations from a re-analysis of the deposited data

Results flagged for a closer look

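In 1 of 19 control groups of 4 libraries, a CDK inhibitor value stood apart. CDKN1A was at 37.16 FPKM in thalidomide replicate 2 of MDA-MB-231, with a gap to its nearest neighbour above Dixon's critical value for 4 libraries, which chance gives for about 1 group in 20.

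The response to a compound differed between lines, by limma's test of the difference itself, for these genes. With BETd-246, MDA-MB-157 less MDA-MB-231 gave -0.56 for CDKN1A, -0.76 for CDKN1B and -0.57 for CDKN1C on the log2 scale. MDA-MB-231 less MDA-MB-468 gave 0.42 for CDKN1A and 0.48 for CDKN1B, and MDA-MB-157 less MDA-MB-468 gave -0.46 for CDKN1C.

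With BETi-211, MDA-MB-157 less MDA-MB-231 gave -1.26 for CDKN1A and -2.20 for CDKN1C. MDA-MB-157 less MDA-MB-468 gave -0.98 for CDKN1A, -1.84 for CDKN1C, -0.93 for CDKN2B, -0.42 for CDKN2C and -0.44 for CDKN2D. MDA-MB-231 less MDA-MB-468 gave 0.27 for CDKN1A, 0.35 for CDKN1C, -0.30 for CDKN2C and -0.54 for CDKN2D.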

How the results depend on the processing

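No direction of a called CDK inhibitor change reversed under the alternatives run. Of the calls against the controls, 14 of 16 with BETd-246 and 12 of 16 with BETi-211 passed under every alternative, as did 15 of 16 between the compounds, 15 of 16 between the lines' controls, and 5 of 6 and 9 of 11 line differences for BETd-246 and BETi-211. The number of calls ranged from 15 to 18 for BETd-246 and from 14 to 17 for BETi-211. Calls between thalidomide and DMSO ranged from 0 to 1 when each library was left out. With the replicate number as a block the counts in the order above were 16, 16, 16, 16, 6 and 10. The numbers share no stated origin, and deviations of same-numbered libraries correlated at -0.2067 to 0.3349, with 6 of 18 over 0.1, so they were not taken as pairs. With 2 libraries a group and no deposited counts, small changes and values near 0 are the least certain.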
